A study of Homo sapiens with 2 samples.

Results

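Chromatin domains were read at 37 genes of fatty acid oxidation and ketone body metabolism, called the members here, in HepG2 cells with and without added fatty acids. HepG2 is an established line of human liver cancer cells. The members were a fixed list of symbols, and all 37 were found among the 19974 protein-coding genes of the RefSeq table on the 23 listed chromosomes. Of these, 24 act in mitochondria, 9 in peroxisomes and 2 in ketone body metabolism, and 2 act elsewhere, CPT1C in the endoplasmic reticulum and ACOT1 in the cytosol. The list was drawn up with earlier results of these data known, so the counts of members below describe the 2 libraries and carry no test.

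Fatty acids are burned in mitochondria, where each turn of the oxidation spiral shortens an acyl-CoA and passes electrons to the respiratory chain. Long chains enter through the carnitine shuttle, and very long or branched chains are shortened in peroxisomes before the products move on. In hepatocytes much of the resulting acetyl-CoA becomes ketone bodies, which other tissues use as fuel, and PPARA, a nuclear receptor that fatty acids bind, is the known activator of many of these genes.

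Hi-C sequences pairs of DNA fragments that lay close together in the nucleus, and a topologically associating domain is a stretch whose parts contact each other more than they contact the flanks. The PA+OA library came from cells that received palmitic acid at 120 µM together with oleic acid at 240 µM, and the mock library from cells that received DMSO at a dilution of 1 in 1000, each over 48 h. The cells had been grown in DMEM with 10% fetal bovine serum, and were then moved to a medium with 1% BSA free of fatty acids. It is not clear from the labels whether the mock cells had BSA too, and DMSO is named for the mock cells alone. Each group had 1 library and so no replicate. Every difference below is one between 2 libraries, and the treatment, the culture and the library cannot be told apart.

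The mock list held 2679 entries and the PA+OA list 2524, of which 136 and 108 have no length, and counts of domains per chromosome include these. The lists come with no value beside the positions, so the depth behind an edge is unknown. Expression was not analysed here, and neither the identity of the cells nor the activity of the members could be checked from the lists. All edges are multiples of 40 kb, called 1 bin, and shorter distances describe the listed edge only. Coordinates are on hg38.

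Most members lay in the same domain with and without fatty acids. The domain around the gene had both its start and its end within 40 kb of each other in the 2 lists, called matched here, for 24 of 37 members (64.9%), and for 40.1% of all protein-coding genes. Both edges lay in the same bin for 21 members, beside 33.3% of all genes. Of the 13 members not matched, 10 had 1 edge within 40 kb, 2 (ACAD9 and BDH1) had neither, and CPT1B lay outside both lists. Of all genes, 1.86% lay outside a list. Across all genes 41.2% had 1 edge within 40 kb and 16.8% had neither. The starts of the members' domains lay in the same bin in 29 cases (78.4%, all genes 55.2%) and 1 bin apart in 2 (5.41%, all genes 5.92%). The ends lay in the same bin in 25 cases (67.6%, all genes 54.3%) and 1 bin apart in 2 (5.41%, all genes 6.09%).

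**Figure D1:**
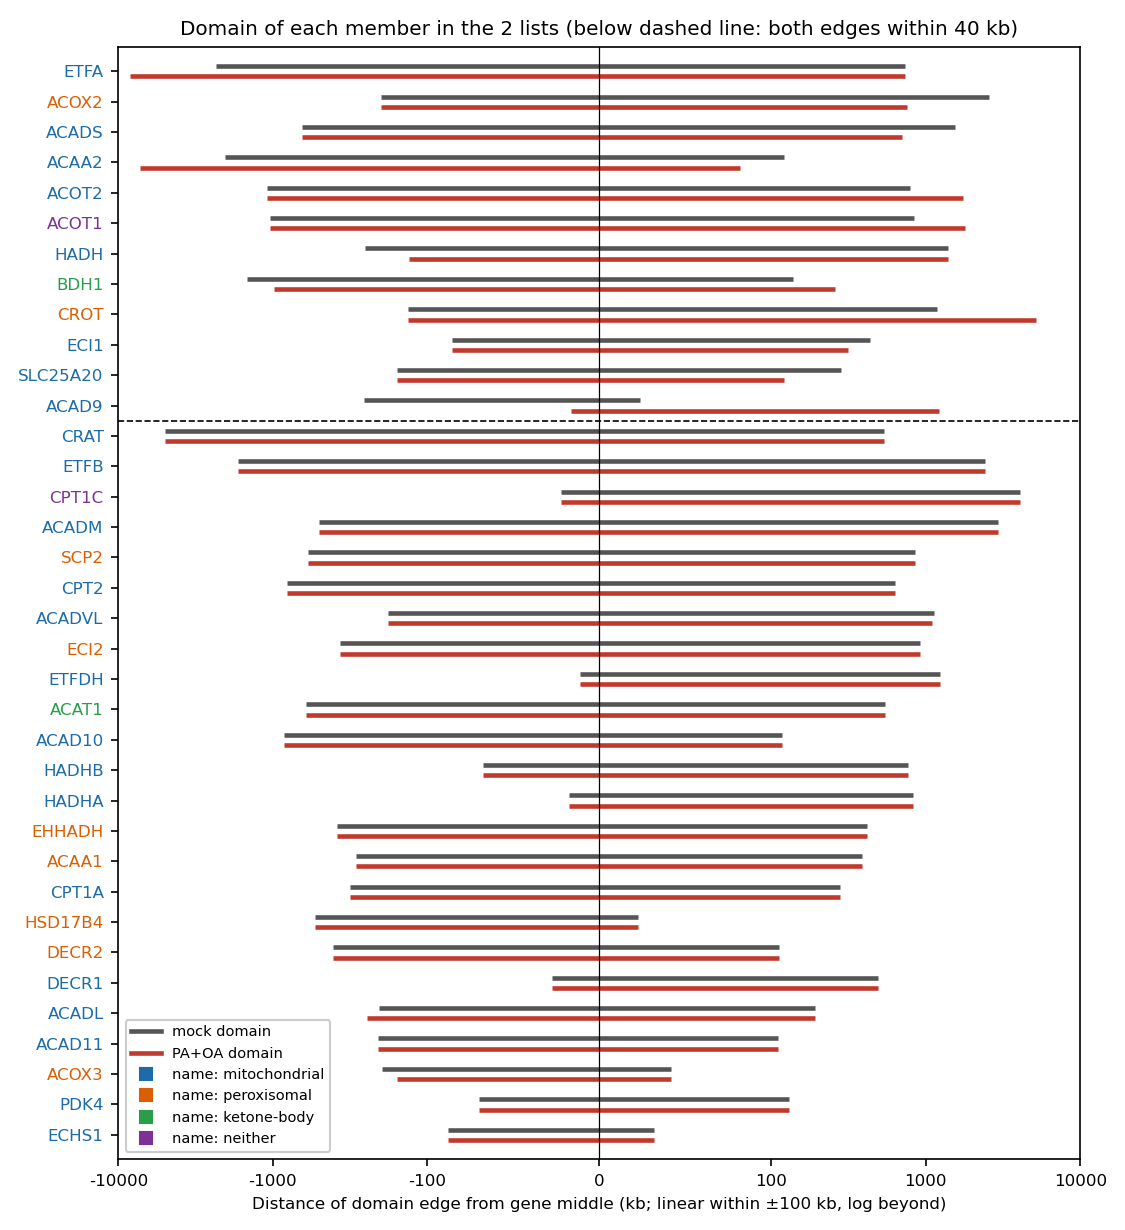
The domain that holds each member in mock cells (grey) and in PA+OA cells (red), as the distance of its edges from the middle of the gene in kb, on an axis that is linear within 100 kb of the gene and logarithmic beyond. Name colours give the class. Bars coincide or nearly so for the 24 members below the dashed line, and the 12 above it differ by more than 40 kb at 1 edge or both. CPT1B, which lay in no listed domain, is not drawn.

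The carnitine shuttle carries long chains across the mitochondrial membranes, and its liver gatekeeper CPT1A was matched. CPT1A lay in chr11:68480001-69080000, a domain of 600 kb, in both lists, with the same 8 other protein-coding genes, among them MRPL21 and GAL. CPT2, the inner-membrane partner enzyme, lay in chr1:52400001-53840000 in both lists. CRAT, the acetyl carnitine transferase, lay in a much larger domain of 5520 kb, chr9:124120001-129640000, also equal in both. The longest matched domain of any member was this one. CPT1C, the brain isoform, lay in chr19:49680001-53760000 in both lists.

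The other shuttle genes were not matched. SLC25A20, the carrier that exchanges acylcarnitine for carnitine, lay in 440 kb, chr3:48720001-49160000, in mock cells and in 280 kb, chr3:48720001-49000000, in PA+OA cells. The start was the same and the end lay 4 bins nearer to the gene with fatty acids, inside P4HTM. The mock domain held 12 protein-coding genes including SLC25A20 and the PA+OA domain 4, namely SLC25A20, ARIH2, P4HTM and PRKAR2A. CROT, the peroxisomal octanoyl transferase that hands medium chains to mitochondria, lay in 1320 kb, chr7:87240001-88560000, in mock cells and in 5280 kb, chr7:87240001-92520000, in PA+OA cells. Mock boundaries at 88560000 and 89640000 had no PA+OA boundary within 1 bin, and the number of genes in the domain of CROT was 9 in mock cells and 30 in PA+OA cells. CPT1B, the muscle isoform, has its middle at 50573736 on chromosome 22, beyond the last listed end of 50240000 in mock cells and of 43960000 in PA+OA cells.

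Acyl-CoA dehydrogenases open each turn of the spiral and are specialised by chain length. Of 7 members of this family, 5 were matched, beside 40.1% of all genes. ACADSB, of the same family but not on the member list, was not matched, with 1000 kb in mock cells and 3320 kb in PA+OA cells. ACADM, the medium-chain enzyme, lay in 3440 kb, chr1:75240001-78680000, in both lists. The domain of ACADVL, the very-long-chain enzyme, ran over chr17:7040001-8360000 in mock cells and chr17:7040001-8320000 in PA+OA cells, with 75 and 74 protein-coding genes. That of ACADL, the long-chain enzyme, ran over chr2:210000001-210400000 and chr2:209960001-210400000. Both differed by 1 bin at 1 edge. ACAD10 lay in 960 kb and ACAD11 in 320 kb, with equal edges in both lists.

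ACADS, the short-chain enzyme, lay in 2200 kb in mock cells, chr12:120080001-122280000, and in 1360 kb in PA+OA cells, chr12:120080001-121440000. The PA+OA end fell inside KDM2B, and 16 of the 45 genes of the mock domain were outside the PA+OA domain. ACAD9, which also serves the assembly of respiratory complex I, lay in chr3:128640001-128920000, with RAB7A as the other gene, in mock cells, and in chr3:128880001-130120000, with 19 other genes, in PA+OA cells. The boundary next to it was listed at 128920000 and at 128880000, 1 bin apart, and the middle of ACAD9 at 128896367 fell between these positions. Placed by the lower end of its record, ACAD9 was matched. On the upper side, the mock boundary at 129240000 was 360 kb from the nearest PA+OA boundary.

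The trifunctional protein of the inner membrane carries out the last steps for long chains, and the genes of its subunits, HADHA and HADHB, stand head to head with 306 bases between their starts. Both lay in chr2:26200001-27040000 in both lists, with 14 protein-coding genes in all. The lower edge of this domain lies inside the record of HADHA, 17.6 kb from its middle and 44.6 kb from its start. The bases before both starts are shown because this shared stretch lies 1 to 2 bins from a boundary listed at the same position, 26200000, with and without fatty acids. They are the 250 bases before the RefSeq start of each gene (GRCh38.p14), read 5′ to 3′ on the strand of the gene, chr2:26244633-26244882 on the minus strand for HADHA and chr2:26244689-26244938 on the plus strand for HADHB, and their 194 common positions are reverse complements. Capitals mark the GC box GGGCGG on either strand.
HADHA: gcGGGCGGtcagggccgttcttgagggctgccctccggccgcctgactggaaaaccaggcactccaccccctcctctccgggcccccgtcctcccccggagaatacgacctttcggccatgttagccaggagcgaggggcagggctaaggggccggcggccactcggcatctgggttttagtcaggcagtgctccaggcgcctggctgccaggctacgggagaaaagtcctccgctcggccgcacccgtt
HADHB: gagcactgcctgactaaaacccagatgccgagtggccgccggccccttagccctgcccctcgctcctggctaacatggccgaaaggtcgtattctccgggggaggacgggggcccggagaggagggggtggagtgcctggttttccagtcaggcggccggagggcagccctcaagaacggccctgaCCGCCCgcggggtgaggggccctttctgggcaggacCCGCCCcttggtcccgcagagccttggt
HADHA had 1 such match and HADHB 2, the first of which is the match of HADHA read on the other strand.

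The soluble enzymes of the spiral act on shorter chains. ECHS1, the short-chain hydratase, lay in the smallest matched domain of any member, 120 kb over chr10:133280001-133400000, with equal edges and the same 7 other genes in both lists. Its upper edge is the last listed end of the chromosome in each list. HADH, the short-chain hydroxyacyl dehydrogenase, lay in 1640 kb in mock cells, chr4:107760001-109400000, and in 1520 kb in PA+OA cells, chr4:107880001-109400000. The PA+OA start, 3 bins from the mock start, fell inside SGMS2 and set the middle of that gene outside the PA+OA domain. The other 8 genes were the same. ACAA2, the mitochondrial thiolase, lay in 2160 kb in mock cells, chr18:47760001-49920000, and in 7280 kb in PA+OA cells, chr18:42600001-49880000. The boundary above ACAA2 differed by 1 bin. Below it, 4 mock boundaries had no PA+OA boundary within 1 bin, and the domain held 10 protein-coding genes in mock cells and 30 in PA+OA cells.

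Isomerases and reductases move double bonds so that unsaturated chains, oleic acid among them, can pass through the spiral. Of 4 genes of this kind, 3 had equal edges in both lists, beside 33.3% of all genes. DECR1, the mitochondrial dienoyl-CoA reductase, lay in chr8:90000001-90520000 with CALB1 as the other gene, and ECI2, an isomerase of peroxisomes and mitochondria, in chr6:3760001-5040000. DECR2, the peroxisomal reductase, lay in the first 520 kb of chromosome 16, where the start of the domain is the start of the chromosome in both lists. ECI1, the mitochondrial isomerase, lay in 520 kb in mock cells, chr16:2160001-2680000, and in 400 kb in PA+OA cells, chr16:2160001-2560000. The end differed by 3 bins, and 1 of 18 genes was outside the PA+OA domain.

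Electrons leave the dehydrogenases through the electron transfer flavoprotein, made of ETFA and ETFB, and its oxidoreductase ETFDH. ETFDH lay in chr4:158680001-159920000 in both lists, and this boundary, 11 kb from the middle of the gene and inside its record, was the nearest of any member. ETFB shared the 4080 kb domain of CPT1C on chromosome 19. The middle of ETFB was 1680 kb from its nearest boundary in both lists, the farthest of the 31 members that had the same nearest boundary within 1 bin. ETFA lay in 3080 kb in mock cells, chr15:73920001-77000000, and in 9160 kb in PA+OA cells, chr15:67840001-77000000. The upper edge was the same. At the lower side 5 mock boundaries had no PA+OA boundary within 1 bin. The domain of ETFA held 50 protein-coding genes in mock cells and 93 in PA+OA cells.

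Peroxisomal oxidation uses its own enzymes, and 7 of 9 peroxisomal members were matched, beside 40.1% of all genes. EHHADH, the peroxisomal bifunctional enzyme, lay in chr3:184840001-185640000 in both lists, and ACAA1, the peroxisomal thiolase, in chr3:37840001-38520000. SCP2, which completes the shortening of branched chains, shared the 1440 kb domain of CPT2, 216 kb from it. HSD17B4, the multifunctional enzyme for very long and branched chains, lay in chr5:118960001-119520000 in both lists, and its upper edge fell inside the HSD17B4 record, 22.6 kb from the middle of the gene. ACOX3, an oxidase of branched chains, lay in chr4:8200001-8440000 in mock cells and chr4:8240001-8440000 in PA+OA cells, 1 bin apart at the lower edge, which set the middle of SH3TC1 outside.

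ACOX2, the oxidase of bile acid precursors, lay in 2760 kb in mock cells, chr3:58320001-61080000, and in 960 kb in PA+OA cells, chr3:58320001-59280000. In the stretch of the mock domain PA+OA cells had 5 boundaries that were not within 1 bin of a mock boundary, 3 of them inside the long gene FHIT. Of the 8 protein-coding genes of the mock domain, 7, ACOX2 included, were also in the PA+OA domain, and FHIT was not.

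Ketone body metabolism was represented by ACAT1, the mitochondrial acetoacetyl-CoA thiolase, and BDH1, which turns acetoacetate into hydroxybutyrate. ACAT1 lay in 1160 kb, chr11:107520001-108680000, with the same 11 other genes in both lists. BDH1 lay in 1600 kb in mock cells, chr3:196080001-197680000, and in 1240 kb in PA+OA cells, chr3:196560001-197800000. Its start differed by 12 bins and its end by 3, and the end is the last listed end of chromosome 3 in each list. The domains had 15 genes in common, with 8 in the mock domain alone and 2 in the PA+OA domain alone.

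The neighbouring thioesterase genes ACOT1 and ACOT2, whose enzymes release fatty acids from CoA in the cytosol and in mitochondria, have their middles 54.3 kb apart and shared a domain. Both lay in 1880 kb, chr14:72480001-74360000, in mock cells and in 2840 kb, chr14:72480001-75320000, in PA+OA cells, with 27 and 45 protein-coding genes. The mock boundary inside VRTN at 74360000 was 960 kb from the nearest PA+OA boundary. PDK4, the kinase that turns pyruvate oxidation off when fatty acids are burned, was the lone protein-coding gene of its domain, 200 kb over chr7:95520001-95720000 in both lists.

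**Figure D2:**
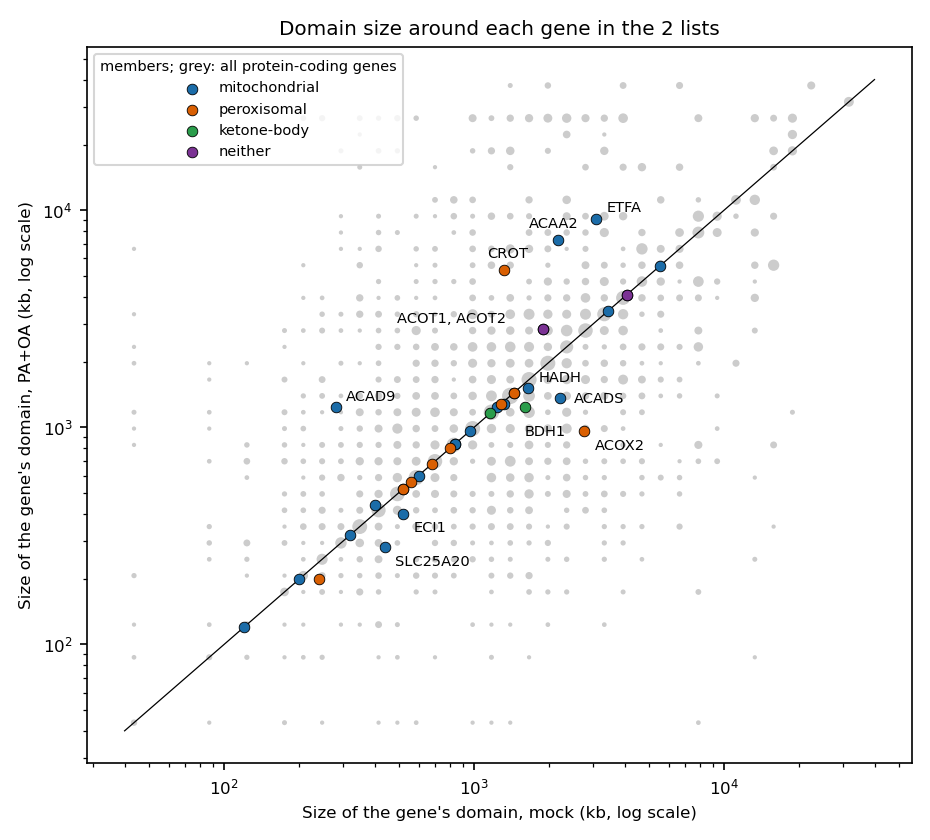
Size of the domain around each gene in mock cells (x axis) and in PA+OA cells (y axis), in kb on log scales, with members as coloured points and all protein-coding genes as grey dots whose size grows with the number of genes there. Matched members lie on or beside the line of equal size, and 6 members not matched lie above it and 6 below.

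The members not matched were split by direction. The domain was larger in PA+OA cells for 6 of 12 members (ACAD9, ACAA2, ETFA, ACOT1, ACOT2 and CROT) and smaller for 6 (SLC25A20, ACADS, HADH, ECI1, ACOX2 and BDH1). ACOT1 and ACOT2 shared their domain, which is counted for each. For ACAD9 the sizes are those of neighbouring domains, because its middle fell between edges listed 1 bin apart. Its mock domain had a PA+OA counterpart with both edges within 40 kb. Among all genes, 32.5% were not matched and in a larger PA+OA domain and 25.3% in a smaller one. Of the genes not matched that lay in both lists, the PA+OA domain was larger for 6 of 12 members and for 56.0% of all such genes. The median size of the members' domains was 1200 kb in each list, and over all genes it was 1480 kb in mock cells and 1560 kb in PA+OA cells. Matched members had a median of 840 kb, and members not matched one of 1760 kb in mock cells and 1440 kb in PA+OA cells. Matched domains were also the smaller ones across all genes, at 1080 kb in mock cells against 1760 kb for genes not matched.

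**Figure D3:**
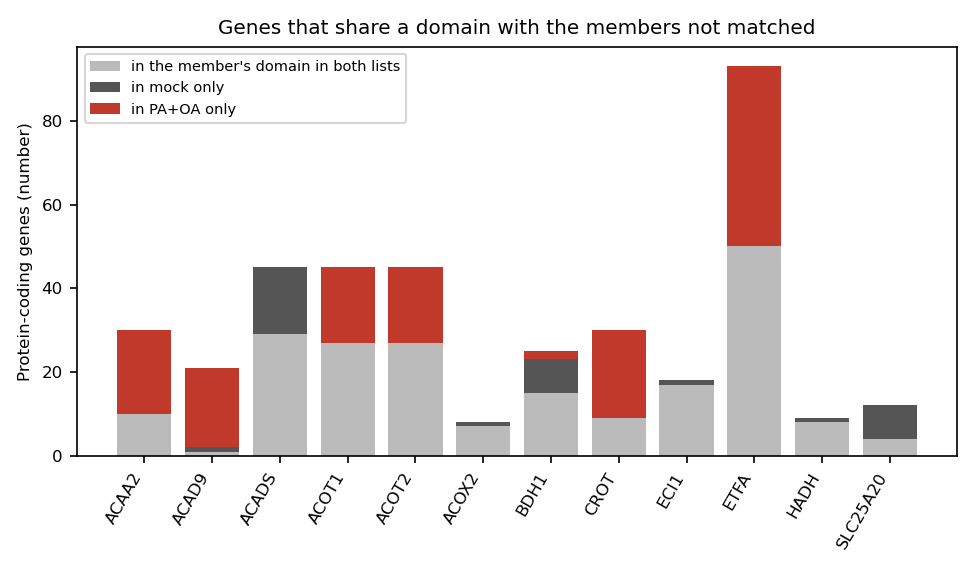
Number of protein-coding genes that lay in the domain of each of the 12 members not matched, the member included, as stacked bars. Grey counts genes present in both lists, dark grey those in the mock domain alone and red those in the PA+OA domain alone. For HADH, ECI1 and ACOX2 the lists differ by 1 gene, and for ETFA by 43.

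Peroxisomal members were matched in 7 of 9 cases (77.8%), mitochondrial members in 15 of 24 (62.5%) and ketone body members in 1 of 2, beside 40.1% of all genes. The classes are small, and no difference between the organelles was tested. With ECI2 counted as mitochondrial and ACAD11 as peroxisomal, the shares were again 62.5% and 77.8%. Both genes were matched, so this exchange could not change the shares. Placed by the upper end of their records, ACOX3 and HSD17B4 were no longer matched. The peroxisomal share was then 55.6%, beside a mitochondrial share of 62.5% and 40.1% of all genes. The median domain was 800 kb for peroxisomal members in each list, and 960 kb in mock cells and 1240 kb in PA+OA cells for mitochondrial members. Over all genes it was 1480 kb in mock cells and 1560 kb in PA+OA cells.

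**Figure D4:**
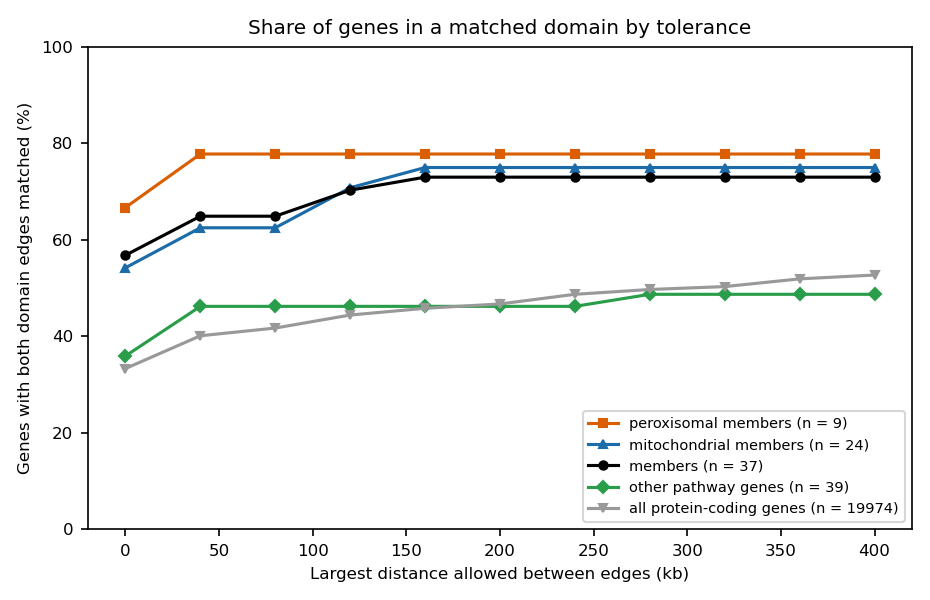
Share of genes in a matched domain, in percent, against the largest distance allowed between the edges of the 2 lists, in kb. The share of the 37 members was 56.8% at 0 kb, 64.9% at 40 and 80 kb, 70.3% at 120 kb and 73% from 160 kb on, and that of all genes went from 33.3% to 52.7% at 400 kb.

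Members just inside the limit of 1 bin were ACADL, ACADVL and ACOX3, each 1 bin apart at 1 edge. No member differed by 2 bins. Just outside it were HADH and ECI1, at 3 bins, and SLC25A20, at 4. No further member was matched between 160 and 400 kb.

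The nearest boundary of a gene can be the same where its domain is not matched. It was the same within 1 bin in both lists for 31 of 37 members (83.8%) and for 61.6% of all genes. Among the 13 members not matched, 7 had the same nearest boundary (53.8%), beside 36.1% of all genes not matched. The exceptions were CPT1B, SLC25A20, HADH, ACOT1, ACOT2 and BDH1. The middle of the gene lay within 50 kb of a boundary for 8 members in each list (21.6%), beside 13.2% of all genes in mock cells and 13.0% in PA+OA cells. These were ETFDH, HADHA, CPT1C, HSD17B4, ACAD9, DECR1, ECHS1 and ACOX3. The median distance was 181 kb for members in each list, and 296 kb and 316 kb for all genes in mock and PA+OA cells.

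**Figure D5:**
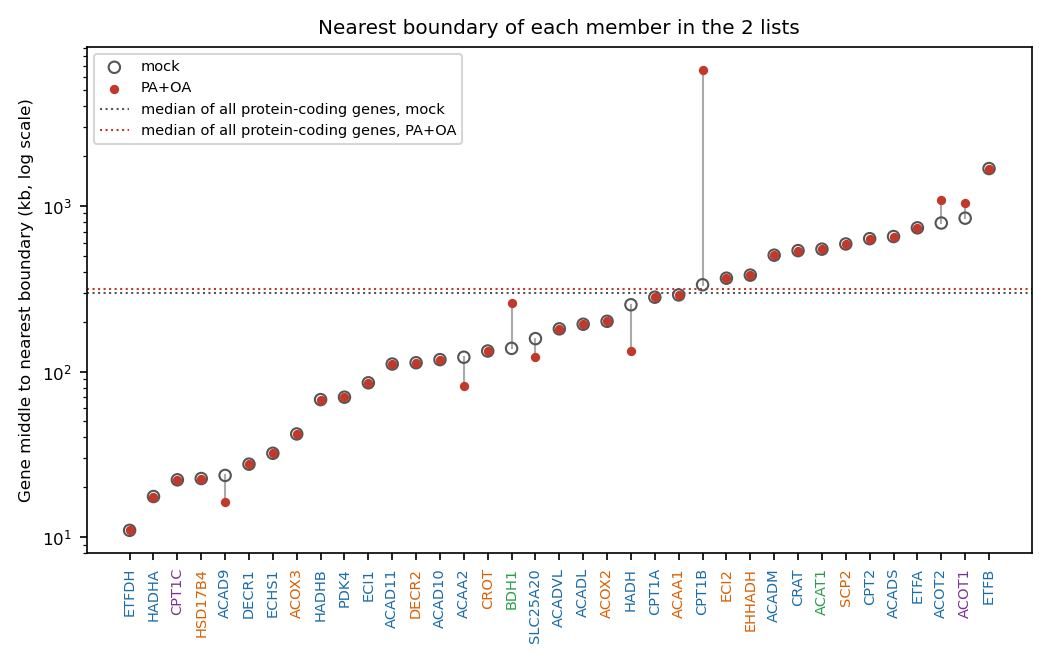
Distance from the middle of each of the 37 members to the nearest boundary, in kb on a log scale, in mock cells (open circles) and in PA+OA cells (red points), with lines that join the 2 values of a gene and dotted lines at the medians of all protein-coding genes. Points lie inside their circles for most members. CPT1B has the widest gap, 334 kb in mock cells and 6610 kb in PA+OA cells. It lies beyond the last listed end of its chromosome in both lists, and its values are distances to those ends.

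A boundary was listed inside the gene record for 4 members in mock cells, HADHA, ETFDH, ACOX3 and HSD17B4, and for these and ACAD9 in PA+OA cells. The shares, 10.8% and 13.5%, stand beside 5.95% and 5.67% of all genes, whose records are shorter, with a median of 24.2 kb against 37.3 kb. All 4 records with a boundary in mock cells also held one in PA+OA cells, as did 72.6% of the 1188 such records among all genes.

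Among the 27 members with a promoter in the sequence table, 3 had their start within 40 kb of a boundary of both lists (11.1%), beside 8.16% of the 15812 genes with a promoter. These were ACOX3, 0.723 kb from 8440000, CPT1C, 10.8 kb from 49680000, and ECHS1, 26.6 kb from 133400000. ACAD9 started 0.38 kb from the PA+OA boundary at 128880000 and 40.4 kb from the mock boundary. Their 250 bases before the start are shown as the stretches nearest to an edge among these 27 members, at chr4:8440724-8440973 (minus strand), chr19:49690598-49690847 (plus), chr10:133373355-133373604 (minus) and chr3:128879370-128879619 (plus), with GC boxes in capitals.
ACOX3: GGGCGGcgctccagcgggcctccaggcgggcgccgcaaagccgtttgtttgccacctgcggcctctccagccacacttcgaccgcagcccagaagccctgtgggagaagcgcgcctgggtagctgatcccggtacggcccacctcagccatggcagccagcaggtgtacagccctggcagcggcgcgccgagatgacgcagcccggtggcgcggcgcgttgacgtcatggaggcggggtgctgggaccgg
CPT1C: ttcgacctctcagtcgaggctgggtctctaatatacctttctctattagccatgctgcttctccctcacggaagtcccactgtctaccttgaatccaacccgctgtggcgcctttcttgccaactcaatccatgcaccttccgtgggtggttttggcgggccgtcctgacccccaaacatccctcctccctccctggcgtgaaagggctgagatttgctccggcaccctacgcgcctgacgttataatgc
ECHS1: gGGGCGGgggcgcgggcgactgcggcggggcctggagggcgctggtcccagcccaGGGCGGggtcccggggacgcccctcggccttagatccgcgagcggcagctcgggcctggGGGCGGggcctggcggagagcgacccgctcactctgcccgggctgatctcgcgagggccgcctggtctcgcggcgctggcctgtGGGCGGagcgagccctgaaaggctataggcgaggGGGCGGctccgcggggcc
ACAD9: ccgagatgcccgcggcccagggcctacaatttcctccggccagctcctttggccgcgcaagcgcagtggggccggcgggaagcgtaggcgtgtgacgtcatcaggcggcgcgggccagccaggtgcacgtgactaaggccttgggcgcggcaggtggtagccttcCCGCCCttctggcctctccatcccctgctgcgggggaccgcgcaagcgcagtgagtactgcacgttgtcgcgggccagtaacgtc
ECHS1 had 5 GC boxes, ACOX3 and ACAD9 had 1 each, and CPT1C none. The 10 members without a promoter in the sequence table were not ranked. Among them are DECR1 and ETFDH, with middles 27.6 kb and 11 kb from a boundary in both lists.

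The GC box, a binding element of Sp1-like factors, was found in 20 of 27 member promoters (74.1%) and in 55.8% of the 15812 protein-coding genes with a promoter. The median GC content of these 250 bases was 66% for members and 62% for all genes. The letters CCAAT were found in 7 member promoters (25.9%, all genes 34.4%). A core of the motif of the boundary protein CTCF (CC, any 3 bases, AGG, any base, GGC) was found in 1 member promoter, that of CPT2 (3.7%, all genes 5.29%), whose start is 643 kb from the nearest boundary. The letters AGGTCA repeated after any 1 base, a form of the element that PPARA binds, were found in none of the 27 and in 2 of the 15812. Both strands were searched and overlapping matches were counted. A match describes letters and no binding, and the absence of one says nothing of the factor.

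Other genes of the pathway, 39 chosen by function, are described beside the members. Of these 39, 18 were matched (46.2%), beside 40.1% of all genes. Neither the difference from all genes nor that from the members was tested. The counts by class that follow stand beside the same share of all genes. Of 8 other ketone body genes, 3 were matched. OXCT2, a transferase that activates acetoacetate, lay in 640 kb, chr1:39160001-39800000, in both lists, and HMGCLL1 in 1720 kb, chr6:54600001-56320000, in both. BDH2, OXCT1, SLC16A1 and SLC16A7 were not matched.

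The peroxisomal genes outside the member list were matched in 6 of 12 cases. ACOT4 went with its neighbours ACOT1 and ACOT2. ABCD2, an importer of very long chains, lay in 4960 kb in mock cells and in 680 kb in PA+OA cells. PHYH and HACL1, which act on branched chains, were not matched, while ABCD3, AMACR, PECR, PEX5, PEX7 and ACOT8 were.

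Of 10 other genes grouped under mitochondrial oxidation, wherever their proteins lie, ACACB, ACOT13, SLC22A5 and MMUT were matched. ACADSB, HSD17B10, MLYCD, MCEE, PCCA and PCCB were not, and the domain of PCCA, a subunit of propionyl-CoA carboxylase, was 3640 kb in mock cells and 35400 kb in PA+OA cells. Of 9 regulators, 5 were matched, namely PPARD, PPARGC1B, ESRRA, PRKAA1 and SIRT1. PPARGC1A, a coactivator of PPARA, lay in 1960 kb in mock cells, chr4:23200001-25160000, and in 720 kb in PA+OA cells, chr4:23760001-24480000, where it was the lone protein-coding gene. PPARA lay in chr22:45240001-46320000 in mock cells, and its middle, at 46197141, is beyond the last end that the PA+OA list gives for the chromosome, 43960000. PRKAA2 and SIRT3 were in larger PA+OA domains, of 4880 kb beside 2760 kb and of 2400 kb beside 920 kb.

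The share of matched genes moved with several properties of the lists, and their part in the count of matched members was not tested. When only genes in domains of at most 3 Mb in both lists were taken, 20 of 29 members (69%) and 18 of 26 other pathway genes (69.2%) were matched, beside 53.1% of all such genes. Without this limit the shares were 64.9%, 46.2% and 40.1%. When each mock domain was counted once, 22 of 32 domains with a member (68.8%) had a PA+OA domain with both edges within 40 kb, beside 49.1% of the 2241 mock domains that hold a protein-coding gene. This count includes the mock domain of ACAD9 and counts the pairs CPT2 and SCP2, HADHA and HADHB, CPT1C and ETFB, and ACOT1 and ACOT2 once each. Members that share a domain share its edges and are not independent of each other.

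By chromosome, none of the 5 members on chromosomes 14, 15, 18 and 22 were matched, where 24.3%, 13.9%, 23.0% and 2.66% of all genes were, and where the PA+OA list had 47, 32, 40 and 12 domains beside 67, 66, 80 and 37 in mock cells. On chromosome 3, which had 231 PA+OA domains and 168 mock domains, 3 of 7 members were matched (ACAA1, ACAD11 and EHHADH), beside 37.1% of all its genes. Chromosomes 16 and 19, where 23.3% and 28.3% of all genes were matched, had 1 of 2 and 2 of 2 members matched. These chromosomes were picked after the values were seen. The share of matched genes on a member's own chromosome averaged 39.4% over the 37 members.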

How the data were processed

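Domain lists from Hi-C of 2 HepG2 libraries, 1 per group, were analysed, with groups taken from the titles. The authors' deposited lists hold positions only: chromosome, start and end of each domain. Reads went through HiC-Pro and FastQC with hg38, per the submitters' processing notes. Tool versions, the domain caller, the matrix normalization and the read depth were not given in the sources used here, and each can shift edges.

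The midpoint of each RefSeq record (GRCh38.p14) set the domain of a gene, with Python 3.11.15 and pandas 2.3.3, starts were written 1-based, and every start and end counted as a boundary. The table places a few alternative-haplotype records away from their locus, and these enter counts over all genes. The code was tested on simulated lists, with genes within 1 bin of a domain edge left out, so the test does not cover such genes. With 1 library per group there was no test. The members, lists and classes were chosen with earlier results of these data known.

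Full edges are given for members that were not matched, shared a domain, lay nearest to a boundary or lay in the smallest or largest matched domain, and for CPT1A, CPT2, ACADM, ACADVL, EHHADH, BDH1 and ACAT1. Further edges were added as examples once values were known. Other pathway genes are named where not matched, or as regulators or ketone body genes, and the matched rest as examples. Some of them are counted but not reported here. Alternatives were other tolerances, gene placements, definitions of a match and restricted gene sets.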

Additional observations from a re-analysis of the deposited data

How the results depend on the processing

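The share of matched members lay between 56.8% and 70.3% under all alternatives run other than tolerances above 3 bins, which gave 73%. For the mitochondrial, peroxisomal and ketone body members the share stayed within the 95% interval of the reported value. So did the medians of size and distance. Such an interval covers counting error only and is wide for classes this small. It treats members that share a domain as independent, and the alternatives reuse the same genes. The share over all protein-coding genes was 33.3% with equal edges, 41.7% and 44.4% with tolerances of 2 and 3 bins, 51.1% by a reciprocal overlap of 80%, 44.2% without the 7 chromosomes whose mean domain is over 2 Mb in a list, 53.1% for domains of at most 3 Mb, 40.9% for genes in a domain of both lists, and 49.1% per mock domain. The other pathway genes reached 69.2% for domains of at most 3 Mb. Counting each domain once and placing genes by their start site (17 of 27 members, 63%) were added after seeing the data. Among genes that each alternative covers, no member was lost other than by equal edges (ACADL, ACADVL, ACOX3), the upper end of the record (ACOX3, HSD17B4) and the start site (ACOX3). Those gained were ACAD9, HADH and ECI1, and SLC25A20 from a tolerance of 4 bins on. No paired analysis was possible because each group has 1 library. The depth is unknown and limits every edge.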

Other observations

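The mock domain of ACAA2 also held LIPG, the endothelial lipase gene, which the PA+OA domain held as well. The domain of ACAD10, chr12:110880001-111840000 in both lists, held ALDH2, the mitochondrial aldehyde dehydrogenase gene. The domain of ACOX2 held PDHB, a subunit gene of pyruvate dehydrogenase, in both lists. The mock domain of CROT held the transporter genes ABCB1 and ABCB4 among its 9 genes, and all 9 were within the PA+OA domain of 30. These neighbours were picked by hand after their positions were seen, with no list or background behind them.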
